A study of Mus musculus with 12 samples.

Results

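Cortical neurons from E17.5 embryos of C57BL/6J mice were grown for 16 h with erinacine S at 1 µg/mL or with its solvent DMSO. Erinacine S comes from the mycelium of Hericium erinaceus, the lion's mane mushroom. The comparison takes 6 of the 12 libraries of the series, 3 treated and 3 control, and the 15761 of 51912 deposited genes whose TPM (transcript abundance per length, scaled to the same total in every library) averaged at least 1 over those 6. The other 6 libraries, with the same treatments for 48 h, are used only for values set beside those of 16 h. Cortices were freed of meninges, dissociated and plated in serum-containing medium, which was exchanged for a serum-free neuronal medium at 3 h, and the compound was added 1 h later, so that at 16 h the neurons were newly plated. The libraries of a group are called independent repeats, with no word on litters, dishes or days. A p-value therefore speaks of the spread among the libraries at hand, part of which may be technical. In its title the series ties the compound to neuronal regeneration and to neurosteroids.

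Neurons that have just been dissociated and plated rebuild their neurites, and several well-known gene programmes can be read in such cells. The endoplasmic reticulum (ER) folds secreted and membrane proteins with chaperones such as BiP (Hspa5) and calreticulin (Calr), and a load of unfolded protein raises the transcription of these chaperones through the factors ATF6 and XBP1. Immediate early genes such as Fos, Nr4a1 and Npas4 are switched on within minutes by calcium entry, growth factors or stress, and their products control slower genes of neuronal activity. Cholesterol synthesis is regulated as a block by the factor SREBP2, and cholesterol is the substrate from which neurosteroids are made.

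The libraries carried a neuronal profile. All 11 markers of excitatory cortical neurons passed the filter on low values, among them Neurod6 at 724 to 857 TPM and Tbr1, a deep-layer factor, at 178 to 273 TPM. The 10 markers of inhibitory neurons passed too. Markers of astrocytes and microglia were detected at lower levels. Of 10 astrocyte markers 8 passed the filter, with the list summing to 162 to 195 TPM over the 6 libraries, most of it from Glul (95.7 to 105 TPM) and Slc1a3 (24.2 to 35.5 TPM), while Aqp4 and S100b reached at most 0.328 and 0.699 TPM. Of 13 microglia and macrophage markers 10 passed, with the list summing to 34.6 to 64.4 TPM, while Tmem119 and P2ry12 reached at most 0.147 and 0.271 TPM. None of the 12 endothelial, mural and meningeal markers averaged 1 TPM. All 10 radial glia and intermediate progenitor markers passed, summing to 523 to 642 TPM in DMSO and 498.5 to 601.5 TPM with erinacine S. The 7 striatal neuron markers passed too, summing to 543 to 726 TPM in DMSO and 573 to 744 TPM with erinacine S. The markers of dividing cells summed to 622 to 682 TPM in DMSO and 609 to 648 TPM with erinacine S, and were thus detected in both groups. Mitochondrially encoded genes took 7.24% to 7.70% of all TPM, and log2(TPM + 1) values correlated across genes at 0.982 to 0.994 between the groups and at 0.984 to 0.995 within them. The largest axis of variation, with 45.4% of the variance, placed erinacine S replicate 1 (-27.3) and DMSO replicate 1 (-13.6) at one end and DMSO replicate 3 (20.2) and erinacine S replicate 3 (14.9) at the other, and thus followed the replicate number and not the treatment.

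No gene passed the test of erinacine S against DMSO at 16 h. In limma's fit on log2(TPM + 1), 0 of 15761 genes (0%) had an adjusted p under 0.05, 176 (1.12%) had an unadjusted p under 0.05, 77 of them higher (0.489%) and 99 lower (0.628%), and 450 (2.855%) had one when the replicate number was added as a block, still with 0 passing after adjustment. The smallest adjusted p was 0.385, for Ttll7, and every other gene had 0.9999 or more. The expression of all genes was centred on no change, with a median log2 fold change of 0.01. On the log2(TPM + 1) scale of the fit, 99.5% of the genes lay within 1.5-fold of DMSO. On that scale the 95% interval of 97.9% of the genes stayed within 2-fold in either direction. Each interval was taken for its gene alone, with no adjustment over the 15761 genes, and rests on the spread among these libraries. It therefore does not exclude a change of 2-fold or more in a given gene. The median half-width of 0.28 on the log2 scale also leaves room for changes under 2-fold. For genes near the filter these limits do not hold for TPM itself, whose change the added 1 understates. Fam181a, for example, differed by -0.64 on this scale and by -0.91 when 0.1 was added in place of 1.

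**Figure D1:**
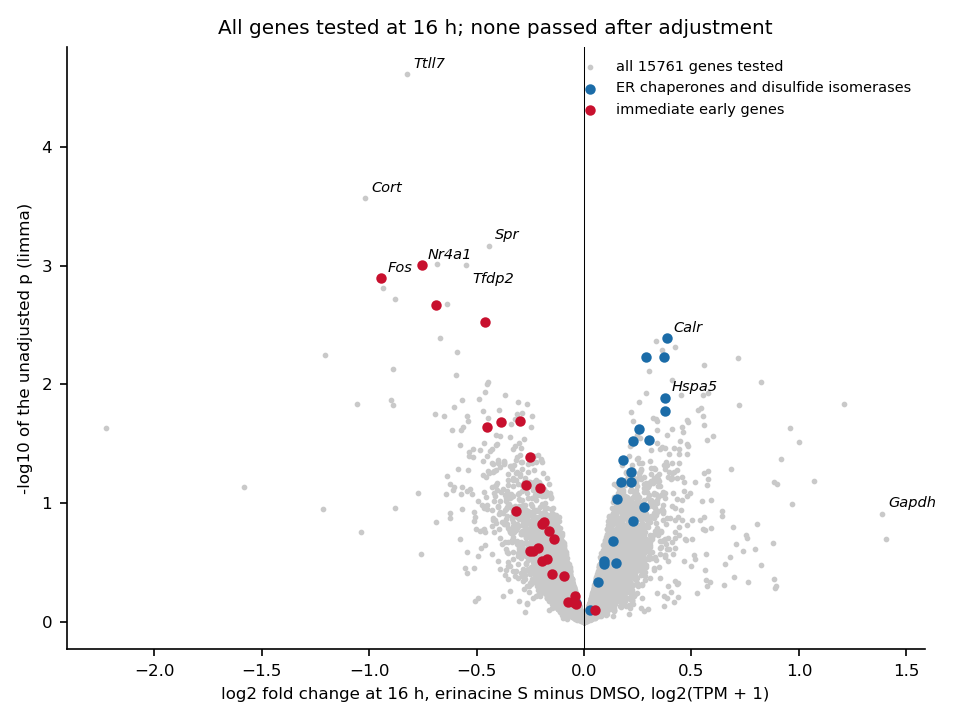
Each point is a gene at 16 h, with its log2 fold change on the horizontal axis and the −log10 of its unadjusted limma p on the vertical axis. The ER chaperones (blue) lie on the positive side except Ero1l, the immediate early genes (red) on the negative side except Gadd45b, and none of the 15761 genes passed after adjustment.

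Below, genes are also described by whether the 3 erinacine S libraries all lay above or all below the 3 DMSO libraries. All 3 were above for 414 genes (2.63%) and all 3 below for 239 (1.52%), 4.14% in either direction. Same-numbered libraries deviated together, so the difference within each of the 3 pairs is given where it matters. The value was higher in all 3 pairs for 1797 genes (11.4%) and lower in all 3 for 1199 (7.61%). Of all genes, 53.8% had a positive and 46.2% a negative log2 fold change. These shares are the background against which each list of genes is read.

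Ttll7, a polyglutamylase that adds glutamate side chains to tubulin, stood furthest from its spread (chromosome 3, 146852367 to 146984009, GRCm38). It measured 15.6, 15.2 and 14.5 TPM in DMSO replicates 1 to 3, and 8.35, 8.41 and 7.56 TPM with erinacine S. The groups were far apart, with means of 15.1 ± 0.531 and 8.11 ± 0.471 TPM (SD, n = 3), and the log2 fold change was -0.82 with a standard error of 0.10 and a 95% interval from -1.04 to -0.60 (limma, adjusted p = 0.385). At 48 h Ttll7 measured 25.2, 24.5 and 24.9 TPM in DMSO and 17.5, 22.3 and 13.6 TPM with erinacine S. The 48 h groups did not overlap either, and the difference there was -0.49.

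The lower genes after Ttll7 held a neuropeptide, an enzyme of cofactor synthesis and a partner of E2F. Cort, which encodes cortistatin, a peptide of cortical interneurons, measured 5.23, 3.71 and 3.84 TPM in DMSO and 1.21, 1.74 and 1.81 TPM with erinacine S, a log2 fold change of -1.02 ± 0.17 (SE). In bulk RNA fewer cells of a type and less RNA per cell cannot be told apart. Spr, sepiapterin reductase, which makes tetrahydrobiopterin, the cofactor of the hydroxylases behind dopamine and serotonin, measured 21.6, 20.8 and 20.3 TPM in DMSO and 15.3, 15.1 and 14.9 TPM with erinacine S. Its libraries were almost identical within a group, and its log2 fold change was -0.44 ± 0.08. Tfdp2, a dimerisation partner of E2F transcription factors, measured 25.2, 21.5 and 26.4 TPM against 14.8, 17.2 and 16.8 TPM, a log2 fold change of -0.55. At 48 h Tfdp2 differed by 0.07 and Spr by -0.11, while Cort differed by -0.50. Fam181a was lower as well, at 2.71 to 3.13 TPM in DMSO and 1.31 to 1.88 TPM with erinacine S, and its 48 h difference was -0.59 beside -0.64 at 16 h.

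Several gene models among the leading genes are uncertain. The small genes Lenep (-0.94), Mir7016 (-0.67) and Mir3093 (0.82) lie inside Flad1, Tmem39b and Gm3764 on the same strand, hosts at 40.1, 46.4 and 481 TPM, so their reads cannot be told from those of the host. The mitochondrial tRNA gene mt-Tp (-0.88) is another very short model. Hebp1, a heme-binding protein gene, stood at 1.43 to 2.65 TPM in DMSO and 2.91 to 3.81 TPM with erinacine S, but Fam234b at 59.2 TPM overlaps it on the other strand. Opposite-strand neighbours also overlap Psph (Cct6a at 621 TPM), Junb (Prdx2 at 555 TPM), Ddit3 (Mars at 102 TPM), Srd5a1 (Nsun2 at 87.7 TPM), Cyp51 (Akap9 at 70.4 TPM), Ssr2 (Gm10704 at 29.9 TPM) and Erp29 (Naa25 at 27.8 TPM). The values of these genes, given below, are uncertain to that extent, since the strand setting is not known. Gapdh, which has many processed copies in the genome, was listed at 21.8, 157 and 21.4 TPM in DMSO and 44.8, 192 and 162 TPM with erinacine S, so its log2 fold change of 1.39 goes with values that jump between libraries of a group.

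Only 11 genes reached a log2 fold change of 1 in either direction, and 4 of them have a given name: Cort, Mir212, Gapdh and Zbed6. Mir212, whose precursor lies in a locus known to answer to neuronal activity, was listed at 2.53, 1.04 and 2.39 TPM in DMSO and at 0, 0.987 and 0 TPM with erinacine S. The groups did not overlap, but the file describes a short precursor model and not the mature microRNA. Zbed6 ranged from 0.153 to 8.83 TPM within DMSO alone. Mir212 and Zbed6 were named after their values were seen.

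**Figure D2:**
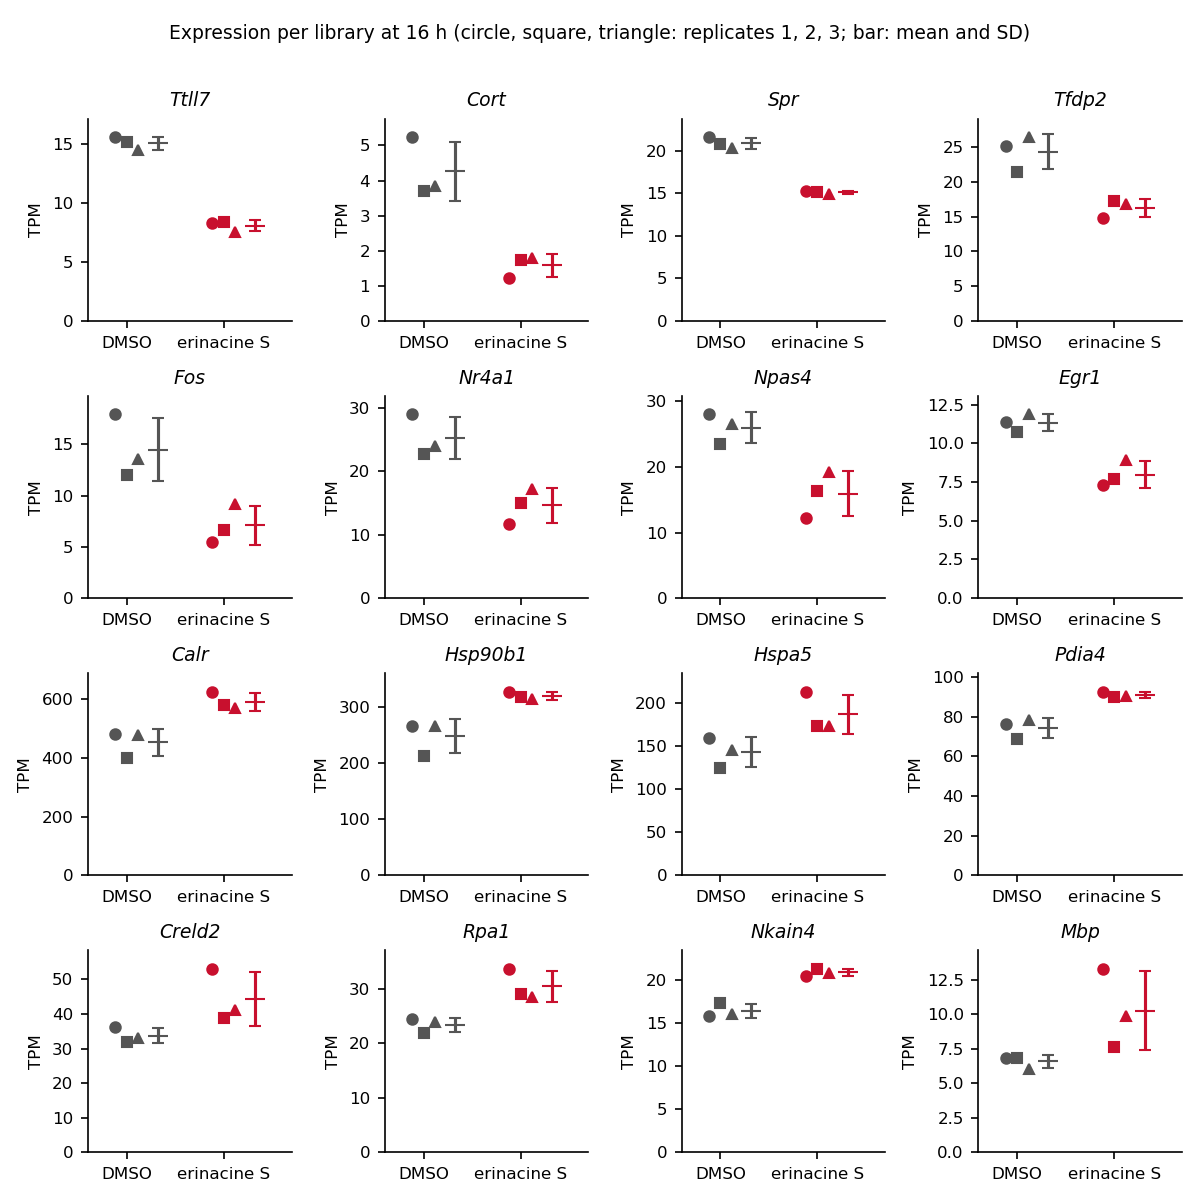
TPM of 16 genes in each library at 16 h, DMSO in grey and erinacine S in red, with circles, squares and triangles for replicates 1, 2 and 3 and a bar for the mean and SD. In all 16 panels the groups do not overlap, with Ttll7 at 14.5 to 15.6 TPM against 7.56 to 8.41 TPM and Calr at 398 to 479.9 TPM against 568 to 625 TPM.

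Proteins that fold other proteins in the ER led the higher side. Of 22 ER chaperones and disulfide isomerases, 21 had a positive log2 fold change, 13 had all 3 erinacine S libraries above all 3 DMSO libraries, 17 were higher in all 3 pairs, and none was lower in all 3. The median of the list was 0.22 on the log2 scale, beside 0.01 for all genes, and no member passed the test. The members summed to 2556, 2227 and 2564 TPM in DMSO and to 3074, 2838 and 2871 TPM with erinacine S, sums that do not overlap. The list was drawn up with earlier results of these data known, and its direction is a description.

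Calr had the smallest p and the highest log2 fold change of the list. Calr (chromosome 8, 84841850 to 84846934), which holds glycoproteins and calcium in the ER, measured 479.9, 398 and 479 TPM in DMSO and 625, 578 and 568 TPM with erinacine S. Its log2 fold change of 0.39 had a standard error of 0.10 and a 95% interval from 0.16 to 0.61. Canx, the membrane-bound relative of calreticulin, was at 175 to 198 TPM in DMSO and 210.1 to 214 TPM with erinacine S, a smaller difference of 0.18.

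Of the heat shock protein relatives in the ER, Hsp90b1 (GRP94) measured 266, 213 and 265 TPM in DMSO and 327, 317 and 314 TPM with erinacine S, and Hspa5 (BiP) 159.6, 125 and 146 TPM against 213, 174 and 173 TPM. Both groups of libraries were apart, with log2 fold changes of 0.37 ± 0.10 and 0.38 ± 0.12. DMSO replicate 2 was the lowest library for both genes. Hyou1, an exchange factor of BiP, overlapped between the groups, with a log2 fold change of 0.22. The DnaJ co-chaperones Dnajc3 (0.22) and Dnajb11 (0.16) did not overlap, and Dnajb9 (0.13) did.

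Among the enzymes that form and rearrange disulfide bonds, Pdia4 measured 76.4, 68.6 and 78.1 TPM in DMSO and 92.6, 89.9 and 90.2 TPM with erinacine S, a log2 fold change of 0.29 ± 0.08. Pdia3 (0.25), Pdia6 (0.23), P4hb (0.17) and Txndc5 (0.09) were also apart between the groups. The oxidases that pass electrons on from these enzymes differed less, by -0.04 for Ero1l and 0.15 for Ero1lb, and both overlapped, as did Erp29 (0.03) and Erp44 (0.07).

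The secreted ER stress proteins were higher too. Creld2 measured 36.1, 31.9 and 33.0 TPM in DMSO and 53.1, 38.7 and 41.1 TPM with erinacine S, a log2 fold change of 0.37, and erinacine S replicate 1 was well above the other treated libraries. Manf was at 66.2 to 88.7 TPM in DMSO and 91.2 to 102 TPM with erinacine S (0.30), though Rbm15b at 68.2 TPM overlaps its model on the same strand. Sdf2l1 (0.28) and the prolyl isomerase genes Fkbp2 (0.23) and Ppib (0.09) overlapped between the groups.

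**Figure D3:**
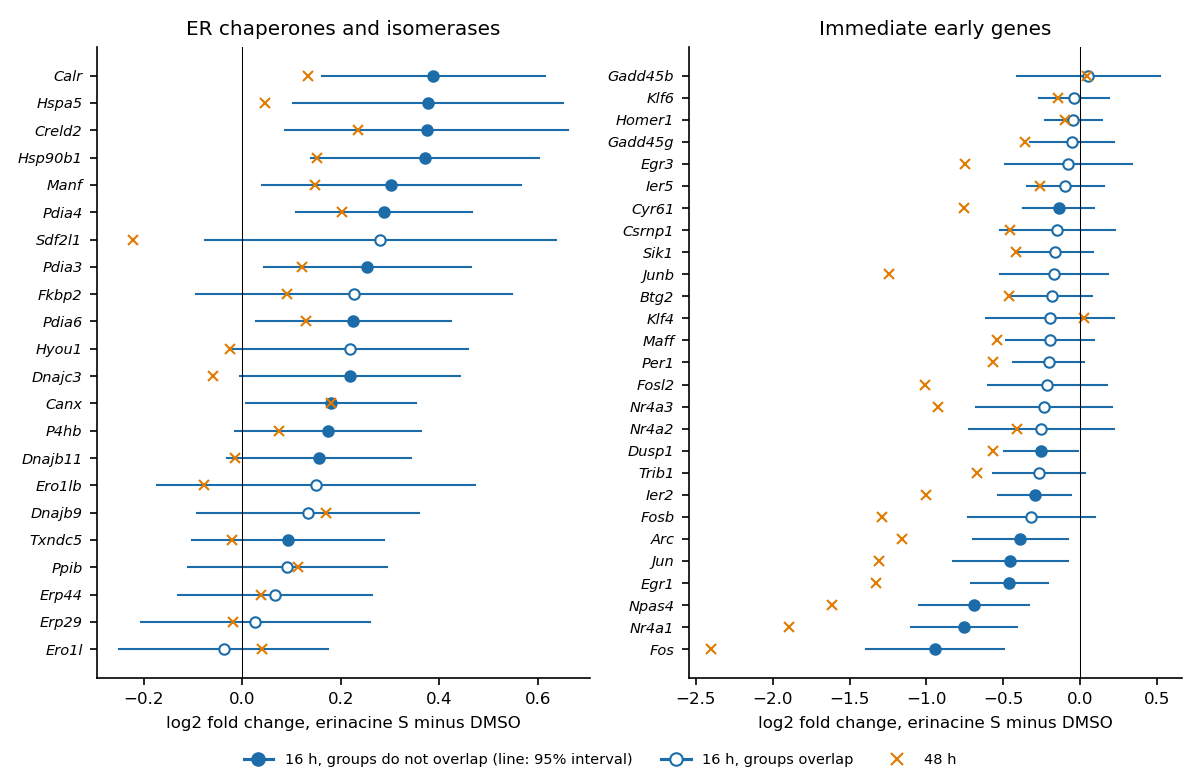
Log2 fold change of erinacine S against DMSO for the 22 ER chaperones and isomerases (left) and the 27 immediate early genes (right), at 16 h as circles with the 95% interval as a line and at 48 h as crosses. Filled circles mark the 13 and 9 genes whose groups do not overlap at 16 h. The immediate early genes sit further from 0 at 48 h, most of the chaperones closer to it.

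The promoters of these genes are known for the ER stress response element (ERSE), a pair of boxes read by NF-Y and ATF6 at a fixed spacing. The letters CCAAT, then 9 bases of any kind, then CCACG were searched on both strands from 250 bases before to 50 after the start in the RefSeq promoters of GRCm38.p6. It was found in 8 of the 19 chaperone genes with such a window (42.1%), and in 37 of 27025 genes with a promoter in all (0.137%), a share of 0.119% of all windows. The 27025 genes include genes not tested here. Of the 10639 tested genes with a window, 19 carried the element. The 8 genes are Hspa5, Hsp90b1, Calr, Canx, Dnajc3, Pdia6, Creld2 and Ero1lb, and the first 7 of them are among the 12 non-overlapping genes of the list with a window. Those 7 are printed because their sequences show the shared element beside the expression values above. Each is a stretch of the window read 5′ to 3′ on the gene's strand, with the element in capitals, in reverse (beginning CGTGG) where it lies on the other strand. Hspa5 is at chr2:34771940-34772089 (+), Hsp90b1 at chr10:86705525-86705674 (-), Calr at chr8:84847032-84847151 (-), Canx at chr11:50325754-50325873 (-), Dnajc3 at chr14:118937782-118937901 (+), Pdia6 at chr12:17266439-17266558 (+) and Creld2 at chr15:88819476-88819595 (+).
Hspa5: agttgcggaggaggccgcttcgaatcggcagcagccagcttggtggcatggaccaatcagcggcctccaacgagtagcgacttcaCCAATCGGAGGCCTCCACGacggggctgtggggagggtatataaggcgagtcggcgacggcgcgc
Hsp90b1: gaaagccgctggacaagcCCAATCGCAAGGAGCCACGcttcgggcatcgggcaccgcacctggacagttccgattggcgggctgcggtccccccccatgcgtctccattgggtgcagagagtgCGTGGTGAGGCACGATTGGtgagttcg
Calr: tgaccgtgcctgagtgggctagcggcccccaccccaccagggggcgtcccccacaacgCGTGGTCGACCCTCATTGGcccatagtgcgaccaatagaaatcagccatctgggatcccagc
Canx: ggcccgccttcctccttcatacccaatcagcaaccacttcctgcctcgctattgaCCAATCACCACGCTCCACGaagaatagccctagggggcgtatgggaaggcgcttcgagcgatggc
Dnajc3: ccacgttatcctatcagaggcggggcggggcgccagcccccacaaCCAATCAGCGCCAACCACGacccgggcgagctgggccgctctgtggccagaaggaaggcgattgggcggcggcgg
Pdia6: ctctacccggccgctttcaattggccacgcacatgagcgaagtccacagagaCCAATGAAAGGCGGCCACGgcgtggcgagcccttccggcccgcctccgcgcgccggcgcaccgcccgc
Creld2: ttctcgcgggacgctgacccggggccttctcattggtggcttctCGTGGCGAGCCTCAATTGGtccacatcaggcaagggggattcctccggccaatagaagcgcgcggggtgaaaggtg

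Hsp90b1 holds the element 2 times, once on each strand, and the other 6 genes hold it once. Outside the chaperone list 11 tested genes carry the element, 7 of them with a positive log2 fold change and none with groups apart. The mannosyltransferase gene Alg12 (0.20, overlapping), which lies head to head with Creld2, is among those 11. The related ERSE-II, ATTGG and CCACG with 1 base between them, was found in Dnajb11 (0.16) among the chaperones and in 12 of all 27025 genes (0.0444%). Of the 10639 tested genes with a window, 8 carried ERSE-II. A match describes the letters in this window and is no evidence of binding.

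The steps before and after folding differed less. Of 17 genes of ER-associated degradation 13 were positive, and Selenos, a selenoprotein of the retrotranslocation complex at 41.6 to 49.7 TPM in DMSO and 52.2 to 56.5 TPM with erinacine S (0.23), and Os9, a lectin that hands over misfolded glycoproteins (0.10), were the 2 whose groups did not overlap. Derl3, a channel component induced by ER stress, measured 2.22, 2.74 and 1.69 TPM in DMSO and 4.86, 2.50 and 4.50 TPM with erinacine S. Its log2 fold change of 0.60 exceeded that of the other degradation and chaperone genes, but erinacine S replicate 2 lay within the DMSO range. Of 23 translocation genes 18 were positive and 2 did not overlap, Ssr2 (0.15) and Sec61a1 (0.10). Of 22 N-glycosylation genes 17 were positive and 1 did not overlap, Dpagt1 (0.13), the enzyme of the first step. Of 27 genes of ER to Golgi transport 19 were positive and 3 did not overlap, among them the KDEL receptor gene Kdelr2 (0.10). The medians of these 4 lists were between 0.04 and 0.07. Without DMSO replicate 1 they were 0.10 for degradation, 0.08 for translocation, 0.10 for N-glycosylation and 0.06 for transport. The lowest values on leaving out a library were 0.03 for degradation and 0.02 for transport without DMSO replicate 3, and -0.02 for translocation and 0.02 for N-glycosylation without DMSO replicate 2.

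The sensors and transcription factors of the unfolded protein response showed no common direction. Of 14 members 6 were positive, the median was -0.02 and none had groups apart. Xbp1, itself a target of ATF6, came closest, at 95.2, 74.1 and 81.3 TPM in DMSO and 112, 93.7 and 93.8 TPM with erinacine S, higher in all 3 pairs with a log2 fold change of 0.26. Atf4 (-0.03), Ddit3 (CHOP, -0.03) and Herpud1 (-0.01) differed by less than their standard errors. Of 35 targets of ATF4, the factor of the integrated stress response, 6 were positive, 10 were lower in all 3 pairs and none had groups apart, with a median of -0.06, which was -0.13 without DMSO replicate 1 and -0.03 without erinacine S replicate 1. Psph, an enzyme of serine synthesis, had the smallest p among them and stood at 39.0 to 50.5 TPM in DMSO and 38.6 to 42.7 TPM with erinacine S.

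Immediate early genes led the lower side. Of 27 members, 26 had a negative log2 fold change, 9 had all 3 erinacine S libraries below all 3 DMSO libraries, 17 were lower in all 3 pairs, and none was higher in all 3. The median was -0.20 at 16 h and no member passed the test. Egr2 and Egr4 stayed under the filter, with no library above 1.22 and 2.09 TPM.

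Fos, a subunit of the AP-1 factor (chromosome 12, 85473890 to 85477273), measured 17.9, 11.98 and 13.6 TPM in DMSO and 5.51, 6.62 and 9.16 TPM with erinacine S. Its log2 fold change was -0.94, with a standard error of 0.20 and a 95% interval from -1.39 to -0.49. Replicate 1 was the highest DMSO library and the lowest erinacine S library. Of the other AP-1 subunits, Jun (139, 207 and 139 TPM against 101, 122 and 124 TPM) did not overlap, with a log2 fold change of -0.45, while Fosb (-0.32), Fosl2 (-0.21) and Junb (-0.17) did.

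Nr4a1, an orphan nuclear receptor (chromosome 15, 101266846 to 101274792), measured 29.0, 22.8 and 24.0 TPM in DMSO and 11.7, 15.0 and 17.2 TPM with erinacine S, a log2 fold change of -0.76 ± 0.15. Its relatives Nr4a2 (-0.25) and Nr4a3 (-0.24) overlapped between the groups. Npas4, a factor induced by calcium entry through depolarisation and hardly by other stimuli, measured 28.0, 23.5 and 26.5 TPM in DMSO and 12.3, 16.4 and 19.2 TPM with erinacine S (-0.69 ± 0.16). Egr1, a zinc finger factor, measured 11.4, 10.8 and 11.9 TPM in DMSO and 7.31, 7.70 and 8.95 TPM with erinacine S (-0.46 ± 0.11), and Egr3 overlapped (-0.08). For Fos, Nr4a1, Npas4 and Egr1 alike, replicate 1 was the lowest and replicate 3 the highest of the treated libraries.

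The remaining members apart between the groups were Arc, a regulator of glutamate receptor endocytosis, at 2.84 to 2.90 TPM in DMSO and 1.62 to 2.18 TPM with erinacine S (-0.39), Ier2 (-0.30), the phosphatase gene Dusp1 (-0.25) and Cyr61 (-0.14). Homer1 (-0.04), Klf6 (-0.04) and Gadd45g (-0.05) differed by less than their standard errors. Gadd45b was the single positive member, at 0.05.

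Slower genes of activity and secretion showed a like direction with more overlap. Of 17 members 12 were negative, 8 were lower in all 3 pairs and 2 had groups apart. In the other direction 2 members were higher in all 3 pairs with groups that overlapped, Ptgs2 (0.36), the inducible cyclooxygenase, and Npy (0.15), neuropeptide Y. Vgf, a secreted granin-like protein, measured 27.4, 33.8 and 27.2 TPM in DMSO and 22.2, 20.7 and 24.7 TPM with erinacine S (-0.37), and Rgs2, which shortens G protein signals, 87.8, 78.3 and 86.9 TPM against 61.3, 71.1 and 74.8 TPM (-0.29). Sst, somatostatin, the neuropeptide related to cortistatin, measured 453, 263 and 492 TPM in DMSO and 191, 222 and 368 TPM with erinacine S. It was lower in each pair, with a log2 fold change of -0.64, but the groups overlapped and the standard error was 0.29. Bdnf, the neurotrophin, overlapped as well (-0.28). Gad1, the GABA-synthesising enzyme gene of the interneurons that make Sst and Cort, stood at 89.1, 95.8 and 94.3 TPM in DMSO and 62.5, 89.9 and 88.1 TPM with erinacine S. It was lower in each pair (-0.23), with groups that overlapped. The list of inhibitory neuron markers had a median of 0.00, which was -0.16 without DMSO replicate 1 and 0.12 without DMSO replicate 2. The number of interneurons was not tested.

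The feedback genes of ERK signalling differed little. Of 14 members 11 were negative with a median of -0.01, and none had groups apart. Dusp6, the ERK phosphatase, was at 15.8 to 21.6 TPM in DMSO and 15.5 to 17.1 TPM with erinacine S (-0.14).

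The cyclic AMP response element TGACGTCA, the site of CREB, was found in the promoter windows of 3 of 21 immediate early genes (14.3%: Btg2, Dusp1 and Maff) and 3 of 11 slower genes (27.3%: Scg2, Pcsk1 and Sst). It was in 549 of 27025 genes (2.03%), a set that includes genes not tested here. Of the 10639 tested genes with a window, 390 carried the element. Of the 3 immediate early and 3 slower genes with the element, only Dusp1 had groups apart. The stretches of Dusp1 (chr17:26508563-26508662, -), Sst (chr16:23890845-23890944, -) and Scg2 (chr1:79440047-79440146, -) are printed, chosen after their values were seen, because they carry this element in genes that differed in all 3 pairs or did not overlap. The element is in capitals.
Dusp1: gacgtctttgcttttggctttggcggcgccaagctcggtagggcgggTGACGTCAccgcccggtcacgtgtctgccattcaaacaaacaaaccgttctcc
Sst: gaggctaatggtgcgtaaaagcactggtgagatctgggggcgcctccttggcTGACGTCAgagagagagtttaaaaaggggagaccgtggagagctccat
Scg2: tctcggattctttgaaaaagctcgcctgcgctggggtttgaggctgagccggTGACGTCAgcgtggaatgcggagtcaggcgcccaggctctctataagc

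Over all 390 tested genes with this element, 173 were positive, 5 were apart on the higher and 5 on the lower side, and the median log2 fold change was -0.01. The serum response element, searched in a single exact spelling, was in none of the windows of the immediate early, slower or ERK feedback genes, and in 21 of 27025 genes (0.0777%). Of the 10639 tested genes with a window, 3 carried it. A site spelled otherwise, or outside the 250 bases before to 50 after the start, would not be found by this search.

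At 48 h the immediate early genes and the chaperones stood differently. The immediate early genes had a median of -0.67 at 48 h beside -0.20 at 16 h, and Fos measured 32.2, 33.4 and 35.1 TPM in DMSO and 7.49, 4.60 and 4.91 TPM with erinacine S at 48 h, a log2 fold change of -2.40. Nr4a1 was at 38.4 to 43.4 TPM in DMSO and 8.20 to 13.3 TPM with erinacine S at 48 h (-1.89). The chaperones had a median of 0.08 at 48 h beside 0.22 at 16 h, and Hspa5 was at 224 to 236 TPM in DMSO and 223 to 248 TPM with erinacine S, where the groups overlapped. Cell type markers differed at 48 h as well. The list medians there were -0.92 for microglia, -0.45 for dividing cells, -0.42 for the oligodendrocyte lineage, -0.28 for radial glia and progenitors, -0.25 for astrocytes, -0.03 for inhibitory and 0.01 for excitatory neurons, and their part in the 48 h values was not tested. The interaction, which tests the difference between the times, passed for 0 of 15623 genes in limma (0%), with 432 at an unadjusted p under 0.05 and a smallest adjusted p of 0.720. With the replicate block within each time 1 gene passed (Gm16172, adjusted p = 0.000888), and with a pseudocount of 0.1 another (Gm15564, adjusted p = 0.0384). Junb (1.07), Anxa3 (1.44), Fos (1.46), Crh (1.59) and Spp1 (2.08) had the smallest p of the interaction, given as the log2 fold change at 16 h minus that at 48 h. Erinacine S replicate 1 at 48 h correlated at 0.981 to 0.982 with the others of its group, where the DMSO libraries correlated at 0.994 to 0.995. Without it the 48 h medians were -0.73 and 0.08.

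The enzymes of cholesterol synthesis were all on the positive side. All 10 from acetyl-CoA to squalene and its epoxidation had a positive log2 fold change, with a median of 0.12, and 6 were higher in all 3 pairs. All 10 from lanosterol formation to cholesterol were positive, with a median of 0.16, and 7 were higher in all 3 pairs. Without erinacine S replicate 1 the median of the first list was 0.04, and without DMSO replicate 1 it was 0.21. None of the 20 had groups apart and none passed. Hmgcs1, which makes HMG-CoA, measured 1152, 951 and 983 TPM in DMSO and 1207, 1115 and 1108 TPM with erinacine S (0.16). DMSO replicate 1 lay within the range of the treated libraries.

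Later in the pathway Nsdhl, which removes a methyl group of the sterol ring, measured 146, 102 and 112 TPM in DMSO and 173, 128 and 133 TPM with erinacine S, with the highest log2 fold change of the 20 (0.27). Fdps (0.18), the farnesyl diphosphate synthase, Cyp51 (0.15), which demethylates lanosterol, and Dhcr7 (0.21), the final step of one branch, were likewise higher in each pair and overlapped between the groups. Idi1 (0.06), the isopentenyl diphosphate isomerase, was higher in 2 of 3 pairs. Replicate 1 was the highest library of each group for the pathway: the lanosterol enzymes stood at a median of 0.27, -0.09 and -0.14 from the DMSO mean in DMSO and 0.45, 0.02 and 0.02 with erinacine S. Without erinacine S replicate 1 the median fold change of the lanosterol enzymes was 0.04, and without DMSO replicate 1 it was 0.30. At 48 h the medians were 0.24 and 0.42.

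**Figure D4:**
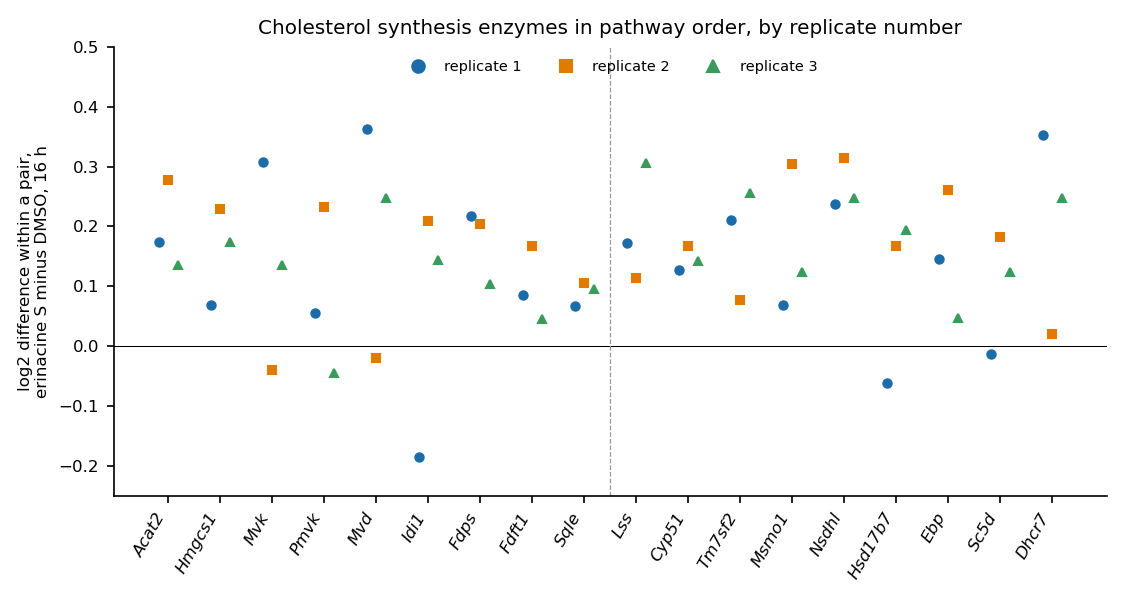
Log2 difference between the erinacine S and the DMSO library of the same replicate number at 16 h for 18 enzymes of cholesterol synthesis in pathway order, with the dashed line between the steps up to squalene and those from lanosterol on. In 12 of the 18 enzymes all 3 points lie above 0, and in the other 6 a single point lies below it.

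The controllers of the pathway differed less. Of 12 genes of SREBP control and sterol uptake 9 were positive with a median of 0.07, and none had groups apart. That median was -0.02 without DMSO replicate 3 and 0.15 without erinacine S replicate 3. Stard4, a sterol carrier, was the member with the smallest p (0.22). Fatty acid synthesis, which SREBP also governs, had 16 of 20 members positive and a median of 0.11, which was 0.05 without erinacine S replicate 1 and 0.16 without DMSO replicate 1. Me1, the malic enzyme that supplies NADPH, measured 15.4, 15.5 and 16.1 TPM in DMSO and 18.3, 18.1 and 19.1 TPM with erinacine S (0.22), groups well apart. The desaturase genes Scd2 (0.24) and Scd1 (0.33) overlapped.

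The neurosteroid synthesis list had a median near 0, and several of its enzymes were hardly detected. Cyp11a1, which cuts the cholesterol side chain in the first step, reached at most 0.307 TPM, Akr1c14 at most 0.161 TPM and aromatase, Cyp19a1, at most 0.119 TPM, and Hsd3b1, Hsd3b2, Hsd3b6 and Cyp17a1 were listed at 0 in all 6 libraries. Of 27 genes in the list 16 passed the filter, 8 of them positive and 8 negative, with a median of 0.00. Srd5a1, the 5-alpha reductase that acts on progesterone and testosterone, measured 13.2, 9.13 and 8.11 TPM in DMSO and 17.2, 9.91 and 9.09 TPM with erinacine S, higher in all 3 pairs (0.20) with groups that overlapped. Its log2 fold change was -0.06 without erinacine S replicate 1. Other expressed members were Tspo, a mitochondrial outer membrane protein, at 3.23 to 6.25 TPM over the 6 libraries and Hsd17b10, a mitochondrial dehydrogenase, at 69.6 to 84.6 TPM. Sult4a1, a brain sulfotransferase-like gene, was the single member apart, at 106 to 109.5 TPM in DMSO and 99.4 to 104 TPM with erinacine S (-0.08). Of 8 steroid receptor and binding protein genes 5 were positive with a median of 0.04.

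**Figure D5:**
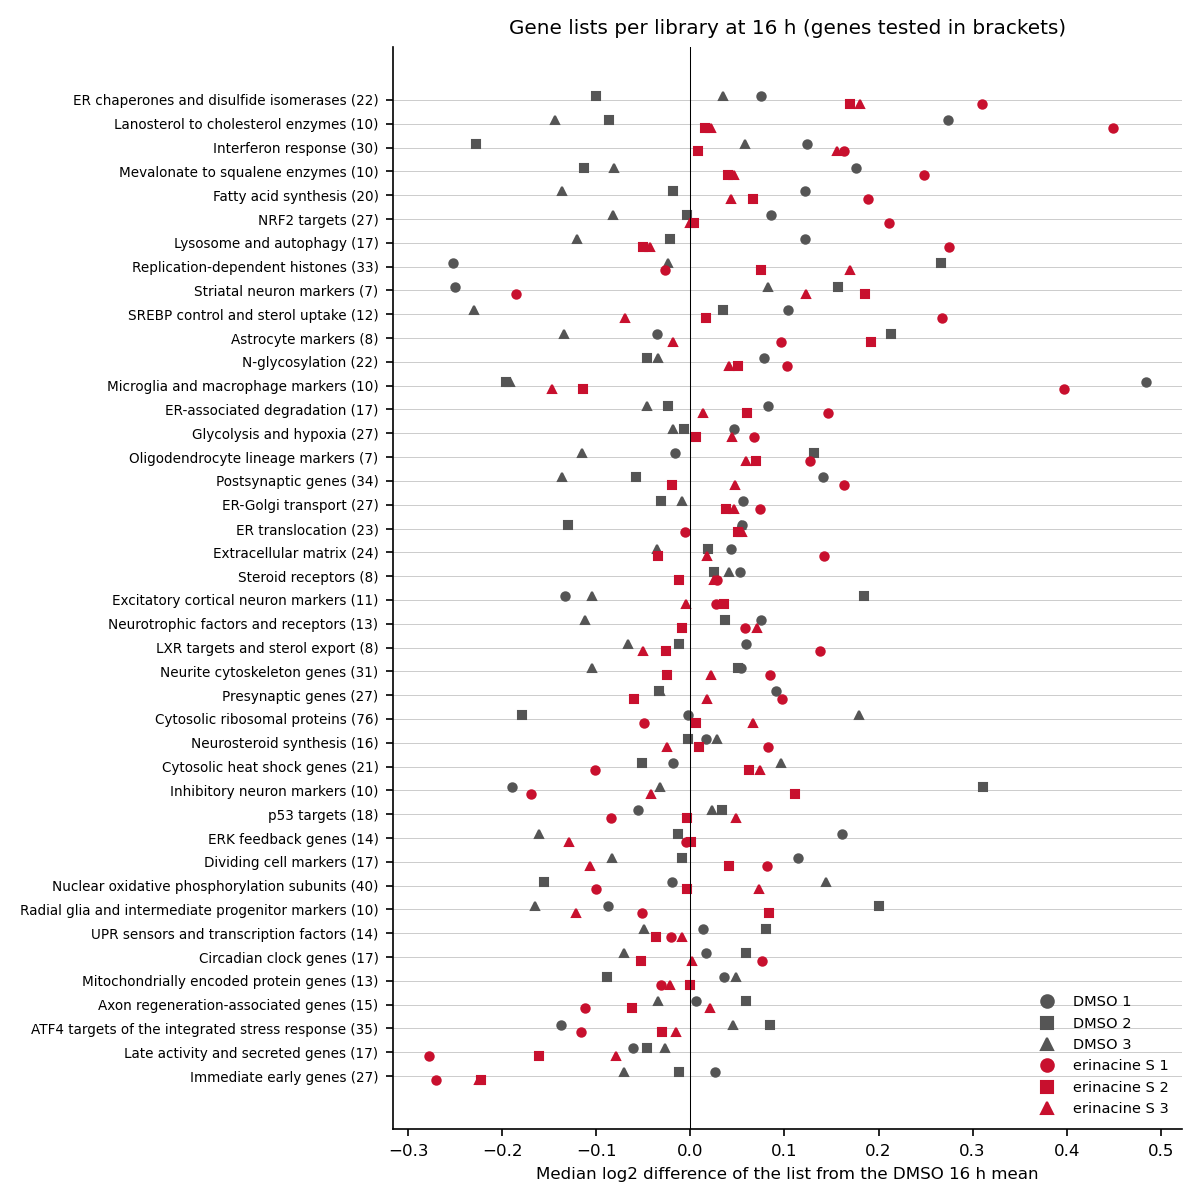
Median log2 difference of each gene list from the DMSO mean of 16 h, per library, for the lists with 7 or more genes tested, ordered by fold change, with DMSO in grey and erinacine S in red. In the ER chaperone list at the top and in both activity lists at the bottom the treated libraries are apart from the control libraries, and in both cholesterol synthesis lists and the microglia and lysosome lists both replicate 1 libraries (circles) lie to the right.

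Growth and regeneration genes differed little. Of 13 neurotrophic factor and receptor genes that passed the filter 9 were positive with a median of 0.03, and Ntrk2, the BDNF receptor, differed by 0.03. Of 15 genes tied to axon regeneration 3 were positive with a median of -0.04, and Gap43, a growth cone protein at 550 to 714 TPM, differed by -0.01. Of 31 neurite cytoskeleton genes 23 were positive with a median of 0.03, and Nefh, the heavy neurofilament, was the only one apart, at 1.63 to 1.78 TPM in DMSO and 1.30 to 1.53 TPM with erinacine S. Of 34 postsynaptic genes 26 were positive with a median of 0.05, and Camk2a, the kinase of synaptic plasticity, was the only one apart, with a mean of 14.3 ± 3.07 TPM in the treated and 11.2 ± 0.713 TPM in the control libraries (SD, n = 3) and a log2 fold change of 0.31. Without DMSO replicate 3 the neurotrophic, cytoskeleton and postsynaptic medians were -0.02, -0.02 and -0.01. Of 27 presynaptic genes 19 were positive and Vamp2 was the only one apart (-0.09).

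Other stress programmes differed by small amounts. Of 27 NRF2 targets 24 were positive and 12 were higher in all 3 pairs, with a median of 0.09, and 2 were apart, the glutathione transferase gene Gsta4, at 4.76 to 7.06 TPM in DMSO and 7.27 to 7.63 TPM with erinacine S (0.31), and Osgin1 (0.24). The NRF2 list stood at 0.00 without erinacine S replicate 1. Of 30 interferon response genes 25 were positive with a median of 0.12 and 2 were apart, among them Rsad2 (0.28). This median was 0.03 without DMSO replicate 2 and 0.18 without DMSO replicate 1. Of 21 cytosolic heat shock genes 11 were positive with a median of 0.00, and Hspa8, the constitutive HSC70, was the only one apart, at 1404 to 1636 TPM in DMSO and 1690 to 1777 TPM with erinacine S (0.21). Of 18 p53 targets 9 were positive, with a median of 0.00, and 2 were apart on the higher side, Eda2r (0.21) and Ccng1 (0.12).

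Among the leading higher genes outside these lists, Rpa1, the large subunit of the single-stranded DNA binding complex RPA, measured 24.4, 22.0 and 23.8 TPM in DMSO and 33.6, 29.1 and 28.6 TPM with erinacine S (0.36), with -0.04 at 48 h. Nkain4, a membrane protein that binds the sodium pump, measured 15.8, 17.3 and 16.1 TPM against 20.5, 21.4 and 20.9 TPM (0.33), with 0.30 at 48 h. Both were far apart relative to their spread. The galactosyltransferase gene B3galt1 (0.30), the calcium-binding S100a16 (0.41) and Tpd52 (0.29) were apart as well.

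Mbp, the myelin basic protein gene, measured 6.85, 6.85 and 6.06 TPM in DMSO and 13.3, 7.66 and 9.85 TPM with erinacine S, a log2 fold change of 0.54. Mog, another myelin gene, reached at most 0.142 TPM. The 7 oligodendrocyte lineage genes that passed the filter had a median of 0.05. The summed list was at 65.8 to 116 TPM in DMSO and 70.7 to 103 TPM with erinacine S. The part of these cells in the Mbp values was not tested.

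Markers of the other cell types did not go with the treatment at 16 h, and some went with single libraries. The microglia markers stood at a median of 0.48 in DMSO replicate 1 and 0.40 in erinacine S replicate 1, and between -0.20 and -0.11 in the other 4 libraries. Hba-a2, alpha globin, was at 59.2 TPM in erinacine S replicate 1 and at 5.57 to 14.4 TPM in the rest. The medians for excitatory neurons (0.04), astrocytes (0.07), radial glia and progenitors (-0.02) and dividing cells (-0.01) were small.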

How the data were processed

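Total RNA was sequenced from strand-specific libraries, per the labels' protocols. Per the submitters' processing notes, the tools were StringTie 2.1.3, HISAT2, SAMtools, Trimmomatic 0.36, bcl2fastq 2.20 and FastQC, with build GRCm38.p5. Neither annotation nor strand setting is given in the sources used here. Values were deposited by the authors as TPM per gene, with 0.0001 in place of 0 (24194 to 28020 genes per library at 16 h), so the read depth is unknown and a value listed at 0 may be a failed estimate.

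Genes averaging 1 TPM or more in the 6 libraries were tested, two-sided, on log2(TPM + 1) in R 4.3.3 by limma 3.58.1 (lmFit, eBayes with trend), with Benjamini-Hochberg adjustment over all 15761 genes and a threshold of 0.05. The log2(TPM + 1) scale understates the change of low genes. The interaction and the 48 h values came from a fit of all 12 libraries to genes whose average across these 12 was 1 TPM or more. The fit of the 6 libraries was also run on simulated libraries with independent noise and planted changes larger than most seen here. That run does not cover smaller changes or deviations shared by libraries of the same number. Libraries with the same number deviated together from the means of their groups (r of 0.476 in replicate 1, 0.179 in replicate 2 and 0.501 in replicate 3, across genes), each over 0.1, so the titles' numbers were taken to pair the libraries, and a replicate block was an alternative. DMSO replicate 3 and erinacine S replicate 2 were over 0.1 as well (r of 0.114), so the threshold alone does not single out the pair of replicate 2. The other alternatives were pseudocounts of 0.1 and 5, no filter or a mean TPM of at least 5, 3 rescalings, robust eBayes, all 12 libraries in a single fit and leaving out each library in turn.

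The members, the 46 gene lists and the motifs were chosen with earlier results of these data known. Named genes are the 12 higher and 12 lower genes with given names and the smallest p whose libraries do not overlap, up to 5 members with the smallest p of each ER, activity or sterol list, up to 2 of each other list and the 5 leading interaction genes. Some of these are not reported here, and other list members where a role or a contrast is described were added with their values seen. Promoter windows are from RefSeq (GRCm38.p6), matched by NCBI gene ID or by symbol for 10639 of the 15761 genes. The printed promoters and the counts over all genes with a motif were chosen after values were seen.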

Additional observations from a re-analysis of the deposited data

How the results depend on the processing

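With the replicate block, which treats same-numbered libraries as pairs, 0 genes passed at 16 h (smallest adjusted p = 0.240, limma), so the block changed no call there. The count of 0 also held under the other alternatives run on all 6 libraries, chosen after the data were seen only for the block within each time in all 12. Leaving out single libraries gave 0 to 1 genes. The 1 gene, the short model AC156953.1 (-3.34, adjusted p = 0.00697), passed without DMSO replicate 1, where it is listed at 0.0454 TPM beside 8.20 and 11.3 TPM in the other DMSO libraries. The interaction gave 1 gene with a pseudocount of 0.1 (Gm15564) and 1 gene with the replicate block within each time (Gm16172), both named after their values were seen; the cause was not tested. Of 110 genes whose fold change was followed, 15 changed sign when a library was left out, and 0 changed sign under any other alternative. Their lowest and highest log2 fold changes without a library were -0.014 and 0.167 for Idi1, -0.158 and 0.0302 for Gadd45g, -0.22 and 0.0587 for Egr3, -0.0853 and 0.0202 for Ero1l, -0.106 and 0.0326 for Klf6, -0.0648 and 0.0322 for Atf4, -0.112 and 0.0443 for Ddit3, -0.0443 and 0.093 for Ntrk2, -0.0407 and 0.103 for Erp29, -0.162 and 0.223 for Gadd45b, -0.0497 and 0.0543 for Herpud1, -0.0648 and 0.744 for Ptgs2, -0.0617 and 0.392 for Srd5a1, -0.0758 and 0.329 for Npy, and -0.103 and 0.0851 for Gap43. The median of the ER chaperones lay between 0.17 and 0.24 and that of the immediate early genes between -0.28 and -0.18 without a library. With rescaled TPM, chosen after the data were seen, 10 to 11 of 22 chaperones and 9 to 11 of 27 immediate early genes did not overlap, beside 13 and 9, while the shares over all genes were 2.24% to 2.59% higher and 1.54% to 2.02% lower, beside 2.63% and 1.52%. TPM keep no depth, so counting error cannot be given.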
